A study of Rattus norvegicus with 60 samples.

Results

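The genes described are 10 heat shock protein and chaperone genes, Hsph1, Hspa8, Dnaja1, Dnajb1, Hsp90aa1, Hsp90ab1, Hspd1, Hspe1, Hspb1 and Cryab, in the liver of male F344/N rats given DMPT (N,N-dimethyl-p-toluidine) or p-toluidine. Both are aromatic amines, and DMPT carries methyl groups on its amino nitrogen that p-toluidine lacks. The members were given by symbol, and a gene counted as measured where a probe set was annotated to its symbol and to no other. By this rule 8 of the 10 genes were measured, out of 14217 genes in all. Hspa8 and Hsp90aa1 appeared only on probe sets that also carry a second symbol, so they have no value of their own here. Where a gene had several such probe sets, the one with the highest mean over the 60 arrays stood for it. Hsph1, Dnaja1, Dnajb1 and Hsp90ab1 had a second probe set each.

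Rats received one chemical by oral gavage in corn oil (2.5 ml/kg) for 5 consecutive days. The daily doses were 1, 6, 20, 60 and 120 mg/kg for each chemical, and each chemical had its own vehicle group given corn oil alone (0 mg/kg). The animals were 5 to 6 weeks old at the start and were housed 2 per cage, and no allele, transgene or other agent is named in the labels. The 12 groups held 5 Affymetrix 3′ arrays each, 60 in all, of RNA from frozen pieces of the left lateral lobe of the liver. Nothing in the labels says which animal or cage an array came from, and the p-values measure only the spread between these arrays, which may be technical.

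All values are deposited log2 probe set values, so a difference of 1 is a doubling, and a change is the dose mean minus the mean of the same chemical's vehicle arrays. A gene was called changed where limma's adjusted p over all 31042 probe sets was at most 0.05. Array medians ran from 3.53 to 3.61 for DMPT and from 2.73 to 2.81 for p-toluidine, so levels were compared within a chemical only. On 5 DMPT arrays (1 at 6, 2 at 60 and 2 at 120 mg/kg) the values had a narrower spread, with an interquartile range under 3.2. DMPT results were recomputed without them. The limit was applied to DMPT arrays only, whose interquartile ranges ran from 3.01 to 3.43. Those of the p-toluidine arrays ran from 3.13 to 3.31, so some also lay under 3.2, and no p-toluidine results were recomputed for this. Hepatocyte markers were bright on all arrays, with all 9 measured markers above the array median. Array data from whole tissue cannot tell fewer cells of a type from less RNA per cell.

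Heat shock proteins help other proteins to fold and keep unfolded ones from clumping. HSP70 binds exposed stretches of a client, J-domain proteins such as Dnaja1 and Dnajb1 bring clients and trigger its ATPase, and HSP110 proteins such as Hsph1 release its nucleotide. HSP90 completes the folding of kinases and steroid receptors, Hspd1 (HSP60) and Hspe1 (HSP10) form the folding chamber of mitochondria and its lid, and the small heat shock proteins Hspb1 and Cryab hold unfolded clients without ATP. Many of these genes are switched on by heat shock factor 1, Hsf1, which binds inverted repeats of a short unit, the heat shock element, in their promoters.

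The promoter windows of 4 called members are shown for these repeats, from 250 bases before to 50 after the start site that the RefSeq promoter table (GRCr8) uses, 5′ to 3′ on the gene's strand. That site is the outer edge of the annotated gene for 6 of the 8 members with a window. For Hsp90ab1 it lies 174 bases and for Hspd1 295 bases inside the annotated gene, so their windows do not show the 250 bases before the gene's outer edge. Capitals mark every pair of units, GAANNTTC or TTCNNGAA. Each of these motifs reads the same on both strands. RefSeq's table held no window for Cryab and Hsp90aa1, and the window of Hspd1, called at 120 mg/kg DMPT, is described but not printed since most of it lies in that of Hspe1. The windows lie at chr12:10427118-10427417 on the plus strand for Hsph1, chr9:64084077-64084376 on the plus strand for Hspe1, chr12:26432252-26432551 on the minus strand for Hspb1 and chr9:22930173-22930472 on the plus strand for Hsp90ab1.
Hsph1: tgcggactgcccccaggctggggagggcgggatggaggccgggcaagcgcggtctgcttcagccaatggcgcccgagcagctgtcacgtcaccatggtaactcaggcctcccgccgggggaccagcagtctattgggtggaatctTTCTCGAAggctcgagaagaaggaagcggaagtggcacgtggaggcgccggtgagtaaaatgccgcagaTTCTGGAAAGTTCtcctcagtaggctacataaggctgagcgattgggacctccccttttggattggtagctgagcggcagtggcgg
Hspe1: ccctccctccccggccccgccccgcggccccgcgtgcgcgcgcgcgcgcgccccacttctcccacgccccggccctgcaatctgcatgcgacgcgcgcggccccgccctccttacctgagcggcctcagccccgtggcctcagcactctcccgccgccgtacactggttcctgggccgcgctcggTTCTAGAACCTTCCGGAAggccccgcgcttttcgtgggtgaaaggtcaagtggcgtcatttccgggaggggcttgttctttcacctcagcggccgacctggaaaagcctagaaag
Hspb1: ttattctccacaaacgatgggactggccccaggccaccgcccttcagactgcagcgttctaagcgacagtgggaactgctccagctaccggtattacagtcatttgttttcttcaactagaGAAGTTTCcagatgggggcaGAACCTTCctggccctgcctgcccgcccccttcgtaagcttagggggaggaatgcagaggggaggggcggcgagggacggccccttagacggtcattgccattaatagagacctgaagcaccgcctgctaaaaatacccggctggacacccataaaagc
Hsp90ab1: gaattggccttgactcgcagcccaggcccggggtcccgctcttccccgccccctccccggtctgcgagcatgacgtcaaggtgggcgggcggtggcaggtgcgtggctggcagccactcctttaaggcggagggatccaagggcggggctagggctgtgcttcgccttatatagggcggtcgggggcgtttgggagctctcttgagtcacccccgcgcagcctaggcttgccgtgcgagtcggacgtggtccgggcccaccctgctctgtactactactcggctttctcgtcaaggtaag

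The Hsph1 window held 3 pairs, of which 2 overlapped, before the start, in a run of 3 units (TTCNNGAANNTTC or, on the other strand, GAANNTTCNNGAA). Hspe1 held 3 pairs in 1 unbroken run. The Hspd1 gene runs the other way on the opposite strand, the start site used for it lies 290 bases from that of Hspe1, and its window at chr9:64083988-64084287 shares 211 bases with that of Hspe1, including the same run. The Hspb1 window held 2 separate pairs and no run of 3 units, Dnajb1 also held 2 separate pairs, Dnaja1 held 3 pairs and 1 run of 3, and the window used for Hsp90ab1 held none. Of all 33469 windows of this length, 15.9% held a pair and 0.798% held a run of 3 units. A match describes the letters only, and the absence of one says nothing about binding.

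After DMPT some members were lower at 20 and 60 mg/kg, and at 120 mg/kg others were higher. No member passed at 1 mg/kg DMPT by limma, where 0% of all genes did, and 2 members, both lower, had an unadjusted p under 0.05. At 6 mg/kg DMPT no member passed (0.211% of all genes), and 1, Hsph1, had an unadjusted p under 0.05. At 20 mg/kg DMPT 3 of 8 fell (Hsph1, Hspe1 and Hsp90ab1, 1.60% of all genes fell) and none rose (1.74% of all genes rose). At 60 mg/kg 2 of 8 fell (Hsph1 and Hspb1, 4.89% of all genes fell) and none rose (2.42%). After 120 mg/kg 2 of 8 rose (Cryab and Hspd1, 5.29% of all genes rose) and none fell (7.43%). The median change of the 8 members was -0.21 at 20, -0.13 at 60 and -0.05 at 120 mg/kg, against medians of -0.01, -0.01 and 0.00 over all genes.

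After p-toluidine no member passed at 1 mg/kg (0% of all genes), 6 mg/kg (0%) or 20 mg/kg (1.08%) by limma. At an unadjusted p under 0.05 there were 0, 1 and 2 members at these doses, all lower. At 60 mg/kg none rose (3.01% of all genes) or fell (3.59%), and 3 (Hsph1, Hspb1 and Hsp90ab1) were lower at an unadjusted p under 0.05. After 120 mg/kg 1 of 8 fell, Hsph1 (6.91% of all genes fell), and none rose (7.84%). The median change of the members was -0.15 at 60 and -0.01 at 120 mg/kg, against -0.01 and 0.00 over all genes.

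Of the members, Hsph1 had the most negative change at 20 and 60 mg/kg DMPT and at 60 and 120 mg/kg p-toluidine. DMPT vehicle arrays read 7.55, 7.35, 7.43, 7.50 and 7.21. After DMPT the arrays read 7.07, 7.19, 7.19, 7.02 and 7.10 at 1 mg/kg and 7.34, 6.95, 6.79, 7.25 and 6.93 at 6 mg/kg. They read 7.08, 6.83, 7.02, 7.04 and 7.04 at 20 mg/kg and 6.67, 6.95, 6.58, 6.86 and 6.89 at 60 mg/kg. All 5 arrays at 1, 20 and 60 mg/kg lay below every vehicle array, while those at 6 mg/kg overlapped the vehicle range. The 120 mg/kg arrays read 7.31, 7.16, 7.15, 7.22 and 7.18, of which 3 lay below every vehicle array.

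Hsph1 fell by 24.6% at 20 mg/kg DMPT (log2 change -0.41 ± 0.09, SE, limma, adjusted p = 0.00887). It fell by 34.8% at 60 mg/kg (-0.62 ± 0.09, adjusted p = 4.21e-05), the smallest adjusted p of any member in any comparison with vehicle. The changes at 1, 6 and 120 mg/kg were -0.29 ± 0.09, -0.36 ± 0.09 and -0.20 ± 0.09 and did not pass (adjusted p = 0.727, 0.0937 and 0.167). At 6 mg/kg the change was -0.43 and passed without replicate 1 of the dosed arrays (adjusted p = 0.0272). The second probe set of Hsph1 gave -0.53 ± 0.13 at 20 mg/kg (adjusted p = 0.0167), -0.65 ± 0.13 at 60 mg/kg (adjusted p = 0.00148) and -0.35 ± 0.13 at 120 mg/kg (adjusted p = 0.0767). Both calls for the first probe set held without any single array.

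The p-toluidine vehicle arrays read 7.40, 7.31, 7.56, 7.13 and 7.16 for Hsph1. Those of the lower doses read 7.57, 7.38, 6.67, 6.85 and 7.43 at 1 mg/kg, 7.12, 7.06, 6.85, 7.10 and 6.54 at 6 mg/kg and 7.19, 6.75, 6.70, 7.28 and 7.18 at 20 mg/kg. Those of the higher doses read 7.03, 7.03, 6.31, 6.11 and 6.85 at 60 mg/kg and 7.08, 5.87, 6.27, 6.80 and 6.83 at 120 mg/kg. All 5 arrays at 6, 60 and 120 mg/kg lay below every vehicle array. The spread was wider than for vehicle at every dose. The SD was 0.39, 0.25, 0.27, 0.43 and 0.49 at 1, 6, 20, 60 and 120 mg/kg, against 0.18 for vehicle (n = 5 each). Hsph1 fell by 40.3% at 120 mg/kg (-0.74 ± 0.20, limma, adjusted p = 0.0127), and the second probe set gave -0.89 ± 0.19 (adjusted p = 0.00199). Without replicate 2 of the 120 mg/kg arrays, the lowest of all, the change was -0.57 and no longer passed (adjusted p = 0.0627). With the beta-actin RNA quality gauge as a covariate it was -0.54 (adjusted p = 0.115).

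At 60 mg/kg p-toluidine the Hsph1 change was -0.65 ± 0.20 (limma, adjusted p = 0.0608). It passed among the brighter probe sets, those with a mean over the chemical's 30 arrays at or above the median (adjusted p = 0.0399). It also passed as the mean of both probe sets (-0.64, adjusted p = 0.04997). Without replicate 1 or without replicate 2 of those 60 mg/kg arrays the change was -0.74, with adjusted p = 0.0478 and 0.0369. At 1, 6 and 20 mg/kg the changes were -0.13 ± 0.20, -0.38 ± 0.20 and -0.29 ± 0.20, with adjusted p of at least 0.651. The dose trend of Hsph1, a slope per dose rank from 0 to 5, was -0.148 ± 0.033 for p-toluidine (adjusted p = 0.00152) and -0.058 ± 0.021 for DMPT (adjusted p = 0.0614). Without the 120 mg/kg group the DMPT slope was -0.13 (adjusted p = 0.000107).

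**Figure D1:**
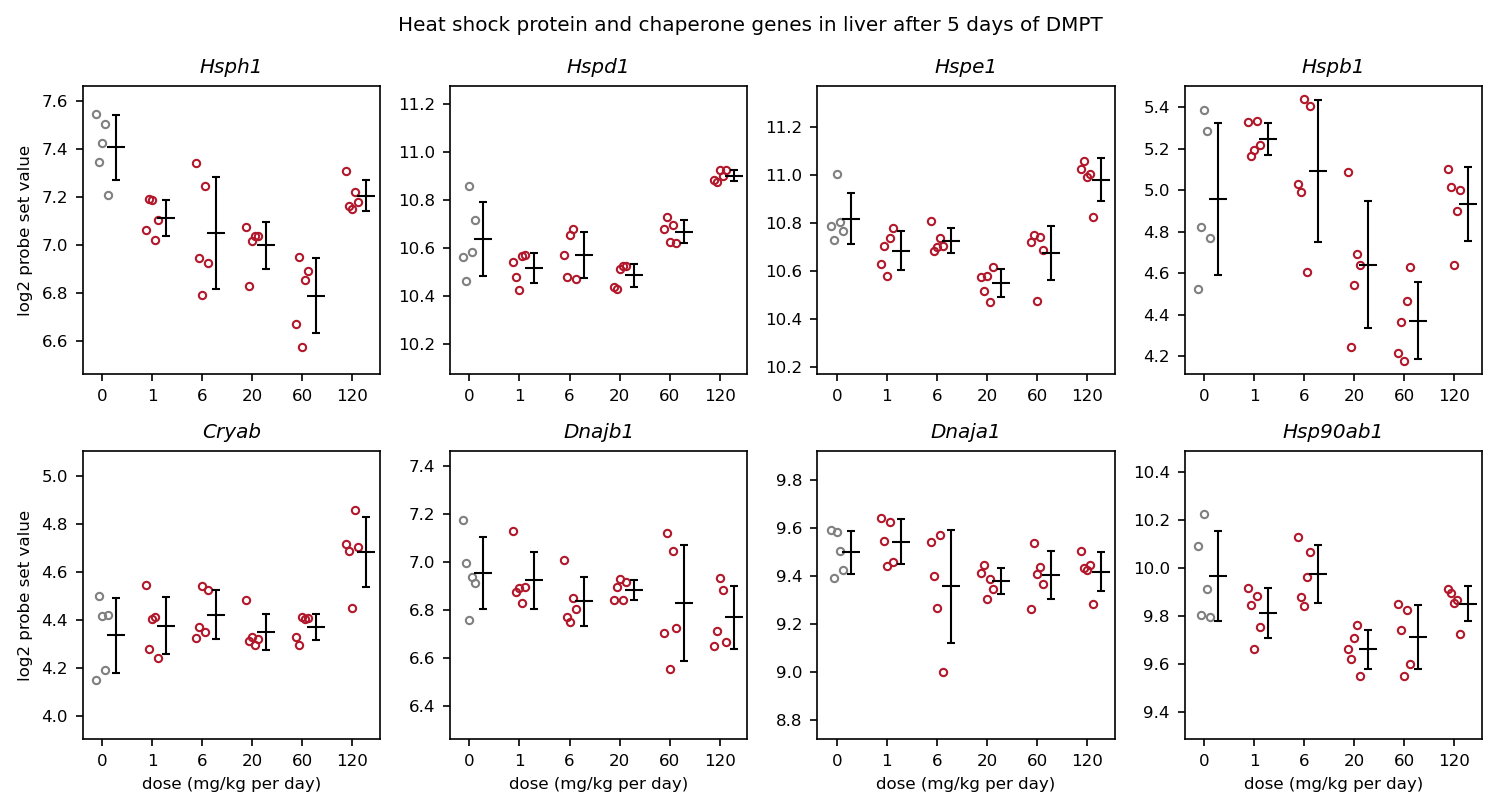
Log2 probe set values of the 8 measured genes against DMPT dose in mg/kg per day. Each circle is 1 array (grey for vehicle, red for dosed rats), and the black bar and whiskers give the mean and SD of 5 arrays. Hsph1 is lowest at 60 mg/kg, and the 5 Hspd1 arrays at 120 mg/kg lie above every vehicle array.

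The J-domain genes Dnaja1 and Dnajb1 did not pass at any dose by their brightest probe sets. The mean of Dnaja1 over the arrays of a DMPT dose lay between 9.36 and 9.54, against 9.50 ± 0.09 (SD, n = 5) for vehicle. Dnajb1 means after DMPT lay between 6.77 and 6.92, against 6.96 ± 0.15 for vehicle. The largest change after DMPT was -0.19 ± 0.09 for Dnajb1 at 120 mg/kg (limma, adjusted p = 0.229). After p-toluidine the changes at 120 mg/kg were -0.21 ± 0.09 for Dnaja1 (adjusted p = 0.182) and -0.22 ± 0.08 for Dnajb1 (adjusted p = 0.0775), and the dosed and vehicle arrays overlapped for both.

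The dimmer probe sets of both genes did pass at 120 mg/kg p-toluidine. The second Dnaja1 probe set read 7.60, 7.40, 7.15, 7.29 and 7.36 at that dose, against 7.97, 7.68, 7.93, 7.83 and 7.58 for vehicle (-0.44 ± 0.10, limma, adjusted p = 0.00442). The second Dnajb1 probe set read 4.62, 4.93, 4.88, 4.73 and 4.88, against 5.14, 4.97, 5.07, 5.39 and 5.14 for vehicle (-0.34 ± 0.09, adjusted p = 0.00743). All 5 dosed arrays lay below the vehicle arrays for Dnajb1 and 4 of 5 for Dnaja1. These second probe sets also trended down with p-toluidine dose, by -0.092 ± 0.018 (adjusted p = 0.000255) and -0.054 ± 0.014 (adjusted p = 0.00891) per dose rank, and that of Dnaja1 with DMPT dose (-0.056 ± 0.018, adjusted p = 0.0306). With the mean of a gene's probe sets as its value, the changes of Dnaja1 and Dnajb1 were -0.32 (adjusted p = 0.0245) and -0.28 (adjusted p = 0.00452). The brighter Dnajb1 probe set also passed at 120 mg/kg among the brighter probe sets (adjusted p = 0.0449) and without vehicle replicate 1, at -0.28 (adjusted p = 0.0299), and at 20 mg/kg without that same array, at -0.34 (adjusted p = 0.0487), while with all arrays the 20 mg/kg change was -0.28 ± 0.08 (adjusted p = 0.0981).

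Hsp90ab1, the constitutive cytosolic HSP90, was called lower at 20 mg/kg DMPT. Its arrays read 9.66, 9.62, 9.71, 9.76 and 9.55 at 20 mg/kg and 9.85, 9.74, 9.55, 9.83 and 9.60 at 60 mg/kg, against 10.09, 9.80, 10.23, 9.91 and 9.80 for vehicle. All 5 arrays at 20 mg/kg lay below every vehicle array, and 3 of 5 did at 60 mg/kg. Hsp90ab1 fell by 19.1% at 20 mg/kg (-0.30 ± 0.08, limma, adjusted p = 0.0345). The changes were -0.25 ± 0.08 at 60 mg/kg (adjusted p = 0.0642) and -0.11 ± 0.08 at 120 mg/kg (adjusted p = 0.457).

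The 2 probe sets of Hsp90ab1 disagreed. The second gave -0.17 ± 0.11 at 20 mg/kg (adjusted p = 0.484) and -0.39 ± 0.11 at 60 mg/kg (adjusted p = 0.0272). The 20 mg/kg call of the brighter probe set was lost when any of 6 arrays was left out: vehicle replicate 1 (adjusted p = 0.0985) or 3 (0.136), or 20 mg/kg replicate 1 (0.0597), 2 (0.0806), 3 (0.0511) or 5 (0.0916). It was also lost with the median of each array set equal (0.0693), as the mean of both probe sets (-0.24, adjusted p = 0.109) and when only the vehicle and 20 mg/kg arrays were fitted (0.0787). At 60 mg/kg the brighter probe set passed without vehicle replicate 2 (-0.29, adjusted p = 0.0400), without vehicle replicate 5 (-0.29, adjusted p = 0.0388) and without 60 mg/kg replicate 1 (-0.29, adjusted p = 0.0453). It also passed after quantile normalization of all 60 arrays (0.0491) and among the brighter probe sets (0.0348). The same held with limma's intensity trend and robust settings (0.0324) and with the beta-actin gauge as a covariate (0.0459). The mean of both probe sets passed as well (-0.32, adjusted p = 0.0132). After p-toluidine neither Hsp90ab1 probe set passed at any dose. The brighter one changed by -0.20 ± 0.10 at 60 mg/kg (limma, adjusted p = 0.289) and the other by 0.34 ± 0.13 at 120 mg/kg (adjusted p = 0.0984).

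The mitochondrial pair Hspd1 and Hspe1 was among the brightest of all genes, at or above the level of 98.7% of them under either chemical. Hspd1 arrays read 10.88, 10.87, 10.92, 10.90 and 10.92 at 120 mg/kg DMPT, against 10.56, 10.46, 10.86, 10.58 and 10.72 for vehicle. All 5 dosed arrays lay above every vehicle array, with an SD of 0.02, against 0.15 for vehicle. Hspd1 rose by 20.1% (0.26 ± 0.06, limma, adjusted p = 0.00563). At 1, 6, 20 and 60 mg/kg its changes were -0.12 ± 0.06, -0.07 ± 0.06, -0.15 ± 0.06 and 0.03 ± 0.06, none of which passed. After 120 mg/kg p-toluidine the arrays read 10.57, 10.32, 10.15, 10.42 and 10.50, against 10.26, 10.24, 10.29, 10.05 and 10.02 for vehicle, with 4 of 5 above every vehicle array (0.22 ± 0.08, adjusted p = 0.0974). Without replicate 3 of those dosed arrays that change was 0.28 and passed (adjusted p = 0.0300).

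Hspe1 was lower at 20 mg/kg DMPT, at 10.58, 10.52, 10.58, 10.47 and 10.62, against 10.79, 10.73, 11.01, 10.81 and 10.77 for vehicle, with no overlap. It fell by 16.9% (-0.27 ± 0.06, limma, adjusted p = 0.0188). That call was lost without vehicle replicate 3, the highest vehicle array (-0.22, adjusted p = 0.0799), and without 20 mg/kg replicate 2 (-0.26, adjusted p = 0.0527) or 4 (-0.25, adjusted p = 0.0633), and with the median of each array set equal (-0.25, adjusted p = 0.0506). At 60 mg/kg Hspe1 read 10.72, 10.75, 10.48, 10.74 and 10.69 and at 120 mg/kg it read 11.03, 11.06, 10.99, 11.01 and 10.83. Of these, 3 of 5 arrays lay below every vehicle array at 60 mg/kg and 3 of 5 above at 120 mg/kg. The change was -0.14 ± 0.06 at 60 mg/kg (adjusted p = 0.234) and 0.16 ± 0.06 at 120 mg/kg (adjusted p = 0.118). Without vehicle replicate 3 the 120 mg/kg change was 0.21 and passed (adjusted p = 0.0416), as it did after quantile normalization of all 60 arrays (adjusted p = 0.0135). After p-toluidine no Hspe1 change passed, the largest being 0.12 ± 0.09 at 120 mg/kg (adjusted p = 0.524).

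Of the small heat shock proteins, Hspb1 was of middling brightness and Cryab was dim, below the median gene. Hspb1 read 4.22, 4.37, 4.18, 4.47 and 4.63 at 60 mg/kg DMPT, against 4.52, 4.82, 5.39, 5.29 and 4.77 for vehicle. Of the dosed arrays 4 lay below every vehicle array, and their SD was 0.18, against 0.37 for vehicle. Hspb1 fell by 33.4% (-0.59 ± 0.15, limma, adjusted p = 0.0177). The call was lost without vehicle replicate 3 (-0.48, adjusted p = 0.0738), vehicle replicate 4 (-0.50, adjusted p = 0.0734) or 60 mg/kg replicate 3 (-0.54, adjusted p = 0.0573), and without the narrow arrays (-0.61, adjusted p = 0.0541). At 120 mg/kg the arrays read 5.10, 5.02, 4.64, 4.90 and 5.00 and the change was -0.03 ± 0.15 (adjusted p = 0.957). After p-toluidine the 60 mg/kg change was -0.45 ± 0.20 (adjusted p = 0.257) and the 120 mg/kg change 0.02 ± 0.20 (adjusted p = 0.967).

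Cryab read 4.72, 4.69, 4.45, 4.86 and 4.70 at 120 mg/kg DMPT, against 4.15, 4.50, 4.42, 4.19 and 4.42 for vehicle. Of the dosed arrays 4 lay above every vehicle array. Cryab rose by 27.2% (0.35 ± 0.08, limma, adjusted p = 0.00287), and the call held without any single array. At the 4 lower DMPT doses its changes ran from 0.01 to 0.09, and none passed. After p-toluidine Cryab did not pass at any dose. Its arrays read 3.61, 3.99, 4.04, 3.82 and 3.49 at 120 mg/kg, against 3.52, 3.80, 3.56, 3.95 and 3.67 for vehicle (0.09 ± 0.10, adjusted p = 0.673).

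**Figure D2:**
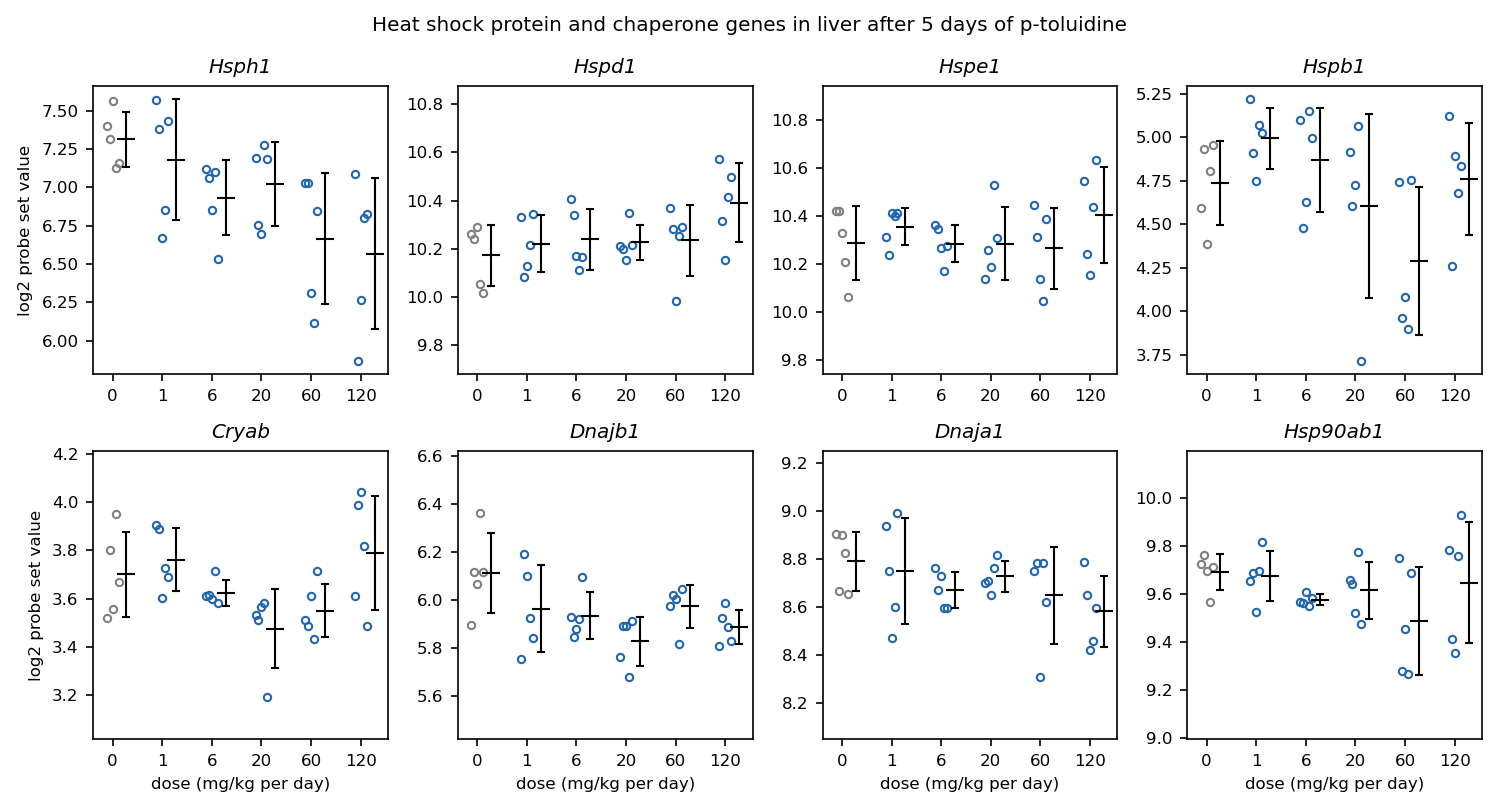
Log2 probe set values of the 8 measured genes against p-toluidine dose in mg/kg per day. Each circle is 1 array (grey for vehicle, blue for dosed rats), and the black bar and whiskers give the mean and SD of 5 arrays. Hsph1 lies below every vehicle array at 60 and 120 mg/kg.

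Over all doses of DMPT the trends of Hspd1 (0.048 ± 0.015 per dose rank, limma, adjusted p = 0.0219) and Cryab (0.047 ± 0.015, adjusted p = 0.0299) were upward, and no member's brightest probe set passed downward, with 4 (Hsph1, Hspb1, Dnajb1 and Hsp90ab1) lower at an unadjusted p under 0.05. Upward trends passed for 7.38% of all genes and downward trends for 12.2%. Without the 120 mg/kg group both slopes were 0.00 (adjusted p = 0.952 for Hspd1 and 0.932 for Cryab), and Hsph1 (-0.13, adjusted p = 0.000107) and Hspb1 (-0.18, adjusted p = 0.00604) passed downward. Without the narrow arrays the upward trends did not pass (adjusted p = 0.120 for Hspd1 and 0.139 for Cryab). Under p-toluidine Hsph1 alone trended by its brightest probe set, downward (9.54% of all genes), and Dnajb1 and Dnaja1 were lower at an unadjusted p under 0.05. The second probe sets of Dnaja1 and Dnajb1 passed downward, as given above. By brightest probe sets no member trended up (10.4%), with 1 member, Hspd1, higher at an unadjusted p under 0.05.

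The values of several members turned between the highest DMPT doses, and this step was tested after the values had been seen. From 60 to 120 mg/kg Hsph1 rose by 33.3% (0.42 ± 0.09, limma, adjusted p = 0.0358) and Hspe1 by 23.6% (0.31 ± 0.06, adjusted p = 0.0352), where 0.204% of all genes rose. All 5 arrays of Hsph1 and all 5 of Hspe1 at 120 mg/kg lay above every 60 mg/kg array. Hspd1, Hspb1 and Cryab had steps of 0.23 ± 0.06, 0.56 ± 0.15 and 0.31 ± 0.08, which did not pass (adjusted p = 0.168, 0.168 and 0.0973). Both calls were lost without the narrow arrays (adjusted p = 0.208 for each) and with the median of each array set equal (0.0683 for Hsph1 and 0.0829 for Hspe1). Both were also lost with the beta-actin gauge of RNA integrity as a covariate (0.0940 and 0.0908), and Hsph1 as the mean of its probe sets (0.187). Leaving out 60 mg/kg replicate 1 or 3, or 120 mg/kg replicate 1, 2, 3 or 4, lost both calls, with adjusted p up to 0.151 for Hsph1 and 0.130 for Hspe1. Leaving out 60 mg/kg replicate 4 lost Hsph1 (0.0566), and replicate 5 lost Hspe1 (0.0651). The Cryab step passed without 120 mg/kg replicate 3 (0.37, adjusted p = 0.0312). No member passed in the same step under p-toluidine (1.34% of all genes), where 2 members, Hspb1 and Cryab, were higher at an unadjusted p under 0.05.

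Whether the chemicals differed at matched dose was tested as the DMPT change minus the p-toluidine change, for 8 genes at 5 doses, with p-values adjusted over all probe sets. None of these 40 differences passed by limma, and 4 had an unadjusted p under 0.05. Of all genes, 0%, 0%, 0%, 0% and 0.0141% passed at 1, 6, 20, 60 and 120 mg/kg. For Hsph1 the difference was 0.03 (95% interval -0.43 to 0.49) at 60 mg/kg and 0.54 (95% interval 0.08 to 1.00, adjusted p = 0.654) at 120 mg/kg. The Cryab difference at 120 mg/kg was 0.26 (95% interval 0.01 to 0.51, adjusted p = 0.736). For Hspd1 at 120 mg/kg it was 0.05 (95% interval -0.16 to 0.25). For Hspe1 at 20 mg/kg it was -0.26 (95% interval -0.48 to -0.04, adjusted p = 0.603). The difference of the steps from 60 to 120 mg/kg, also tested after the values were seen, was 0.51 for Hsph1 (95% interval 0.06 to 0.97) and passed for no member (0.0141% of all genes).

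**Figure D3:**
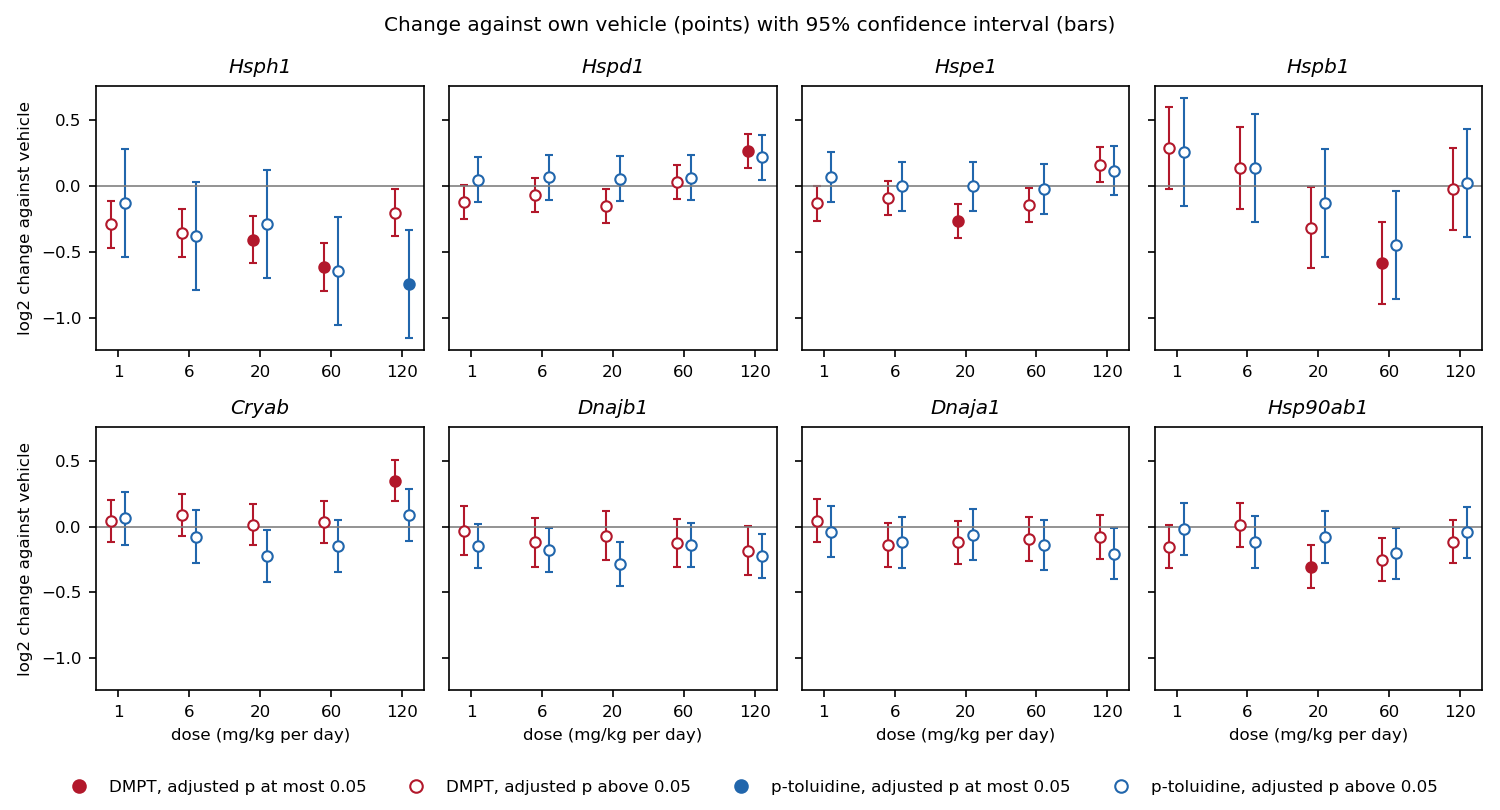
Log2 change against the vehicle of the same chemical (vertical axis) at each dose in mg/kg per day, for DMPT (red) and p-toluidine (blue). Points are changes from 5 dosed and 5 vehicle arrays, bars are 95% confidence intervals, and filled points have an adjusted p of at most 0.05. The intervals of the chemicals overlap for every gene at every dose, and the Hsph1 points lie farthest apart at 120 mg/kg.

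Within groups the members did not vary as 1 block. Correlations of the deviations from group means over 30 arrays, which share their normalization, had a median of 0.23 over 28 gene pairs under DMPT and 0.20 under p-toluidine. The mitochondrial pair Hspd1 and Hspe1 had 0.49 under DMPT and 0.76 under p-toluidine, the highest of all pairs under p-toluidine. Hsph1 and Dnaja1 had 0.51 and 0.52. Hspb1 and Cryab had 0.46 and 0.36. The highest pair under DMPT was Hspe1 and Hsp90ab1, at 0.61, with 0.68 under p-toluidine. The signs differed between the chemicals for several pairs. Among them were Hsph1 and Dnajb1, at 0.44 under DMPT and -0.34 under p-toluidine, and Dnajb1 and Dnaja1, at 0.33 and -0.44.

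Of the non-member genes, those with symbols that begin with LOC, RGD, Rik or AABR were not ranked. The others whose 30 values under DMPT followed the mean of the standardized members most closely were Ahsa1 (Pearson r = 0.81), Polr3g (0.80) and Hnrnpc (0.80). Under p-toluidine they were Stip1 (0.84), Tmx1 (0.80) and Ptges3 (0.79). Ahsa1, Stip1 and Ptges3 encode HSP90 co-chaperones. These correlations run over arrays that share normalization and are a description.

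Other chaperone genes were counted in lists, and lower calls outnumbered higher ones at 60 and 120 mg/kg DMPT. Over all genes the same held, with 695 lower (4.89%) and 344 higher (2.42%) at 60 mg/kg and 1056 lower (7.43%) and 752 higher (5.29%) at 120 mg/kg. After p-toluidine 3.59% of all genes fell and 3.01% rose at 60 mg/kg, and 6.91% fell and 7.84% rose at 120 mg/kg. These shares are the background for the counts of every list below. Of 15 measured HSP90 co-chaperones, which load clients or set the pace of HSP90's cycle, 5 fell at 60 mg/kg DMPT and 3 at 120, and none rose. The cyclophilin Ppid changed by -0.88 ± 0.11 at 60 mg/kg (limma, adjusted p = 7.66e-06) and -0.73 ± 0.11 at 120 mg/kg. The immunophilin Fkbp4 changed by -0.59 ± 0.09 (adjusted p = 5.40e-05) and -0.50 ± 0.09. Stip1, which links HSP70 to HSP90, changed by -0.54 ± 0.10 at 60 mg/kg (adjusted p = 0.00130). Under p-toluidine Ppid, Stip1 and Fkbp4 fell at 60 mg/kg (-0.74 ± 0.14, -0.51 ± 0.14 and -0.34 ± 0.08). At 120 mg/kg p-toluidine Ppid (-0.73 ± 0.14) and Fkbp4 (-0.50 ± 0.08) fell, and Cdc37 and Unc45a (0.28 ± 0.09) rose. The list's median change was -0.12 and 0.01 at 60 and 120 mg/kg DMPT and -0.06 and -0.09 under p-toluidine.

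The CCT chaperonin folds actin and tubulin, and prefoldin delivers clients to it. Of 13 measured genes of both, 8 fell at 60 mg/kg DMPT (4.89% of all genes fell) and 3 at 120 (7.43%). The prefoldin subunit Pfdn6 changed by -0.74 ± 0.15 (limma, adjusted p = 0.00265) and -0.64 ± 0.15 (adjusted p = 0.00491). The chaperonin subunit Cct5 changed by -0.42 ± 0.07 (adjusted p = 0.000254) and -0.22 ± 0.07 (adjusted p = 0.0408). Under p-toluidine 3 fell at 60 mg/kg (3.59% of all genes) and 2 at 120 (6.91%). All of those at these 2 doses were prefoldin genes, among them Pfdn6 (-0.45 ± 0.10 at 120 mg/kg). With p-toluidine dose 5 of the 13 trended down (9.54% of all genes) and none up (10.4%). These included the chaperonin subunits Tcp1 (-0.06 per dose rank, limma, adjusted p = 0.00344) and Cct3 (-0.05, adjusted p = 0.0278). The list's median change was -0.26 and -0.17 at 60 and 120 mg/kg DMPT, and -0.22 and -0.12 under p-toluidine.

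Of 4 heat shock factor genes Hsf1 fell at 60 mg/kg (-0.36 ± 0.10, limma, adjusted p = 0.0366) and 120 mg/kg DMPT (-0.52 ± 0.10, adjusted p = 0.000893), and none passed at these doses of p-toluidine. The dose trend of Hsf1 was downward under DMPT (-0.11 per dose rank, limma, adjusted p = 2.07e-05) and p-toluidine (-0.06, adjusted p = 0.0266). Its signal was low, with a mean of 3.88 over the 60 arrays. Of 7 other HSP70 and HSP110 genes none passed at any DMPT dose, but the heat-inducible Hspa1a trended up with DMPT dose (0.045 ± 0.015 per dose rank, adjusted p = 0.0373), at 0.20 ± 0.08 at 120 mg/kg (adjusted p = 0.144). In the same list Hspa13 fell at 120 mg/kg p-toluidine (-0.28 ± 0.09). Of 14 other J-domain genes Dnaja4 fell at 60 and 120 mg/kg of both chemicals (-0.56 and -0.64 after DMPT, -0.72 and -0.73 after p-toluidine), and Dnajc9 rose at 120 mg/kg of each (0.47 ± 0.11 and 0.42 ± 0.13). In the same list Dnajc2 fell at 120 mg/kg DMPT, and at 120 mg/kg p-toluidine Dnajb14 rose and Dnajc21 and Dnajb2 fell. Of 7 HSP70 nucleotide exchange factors Bag2 fell at 120 mg/kg DMPT (-0.28 ± 0.09), and Bag4 (0.40 ± 0.11) and Bag1 (0.31 ± 0.06) rose at 120 mg/kg p-toluidine. None of 7 other small heat shock proteins and neither of 2 cold-inducible RNA-binding genes passed at 60 or 120 mg/kg of either chemical, while Rbm3 trended down with DMPT dose (-0.07 per dose rank, adjusted p = 0.0161) and Hspb6 up with p-toluidine dose (0.06, adjusted p = 0.0438).

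Of 14 mitochondrial chaperone and protease genes 3 fell at 60 mg/kg DMPT (4.89% of all genes fell) and 4 at 120 (7.43%). Among them were the protease subunit Clpp (-0.43 ± 0.08 and -0.33 ± 0.08) and the HSP70 exchange factor Grpel1 (-0.19 and -0.22). Under p-toluidine Dnajc19 rose at 60 mg/kg (0.38 ± 0.09), and at 120 mg/kg Hscb rose (0.53 ± 0.09) and Clpx (-0.30 ± 0.06) and Grpel1 (-0.24 ± 0.06) fell. With DMPT dose 3 of the 14 trended up (Hspa9, Dnajc19 and Htra2, 7.38% of all genes) and 4 down (12.2%). With p-toluidine dose 4 trended up (10.4%) and 2 down (9.54%). Hspa9 trended up with both, by 0.049 ± 0.014 (limma, adjusted p = 0.0119) and 0.045 ± 0.015 (adjusted p = 0.0377) per dose rank. Of 15 endoplasmic reticulum chaperones 5 fell (4.89% of all genes) and P4hb, a disulfide isomerase, rose (2.42%) at 60 mg/kg DMPT, and 3 fell at 120 (7.43%). Dnajb11, a partner of the reticulum's HSP70, changed by -0.45 ± 0.08 at 60 mg/kg (limma, adjusted p = 0.000516) and -0.28 ± 0.08 at 120 mg/kg. Under p-toluidine 5 fell (3.59% of all genes) and 1 rose (3.01%) at 60 mg/kg. After 120 mg/kg p-toluidine 4 rose (7.84% of all genes), among them Sdf2l1 (0.72 ± 0.15) and Pdia3 (0.52 ± 0.10). Creld2 (-0.55 ± 0.15) and Dnajc3 fell there (6.91% of all genes).

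At lower doses, fewer listed genes passed, and those named here were chosen after their values were seen. Of all genes 0.211% passed at 6 mg/kg DMPT, 1.60% fell and 1.74% rose at 20 mg/kg DMPT, and 1.08% passed at 20 mg/kg p-toluidine. At 6 mg/kg DMPT the reticulum HSP70 Hspa5 (-0.32 ± 0.07, limma, adjusted p = 0.0413), Creld2 (-0.45 ± 0.09) and the small heat shock protein Hspb8 (-0.37 ± 0.07, adjusted p = 0.0205) fell. At 20 mg/kg DMPT the same 3 genes fell, and so did Hsp90b1 (-0.39 ± 0.07), the HSP90 of the reticulum, Hyou1, its HSP110 (-0.45 ± 0.11), Dnajb11 (-0.51 ± 0.08), Dnaja4 (-0.51 ± 0.09), the co-chaperones Stip1 (-0.51 ± 0.10), Fkbp4 (-0.52 ± 0.09) and Ppid (-0.72 ± 0.11), and the chaperonin subunits Tcp1, Cct5 and Cct6a. At 20 mg/kg p-toluidine Pfdn2 alone of the chaperone lists fell (-0.26 ± 0.07, adjusted p = 0.0484). No gene of the chaperone lists rose at 20 mg/kg of either chemical.

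**Figure D4:**
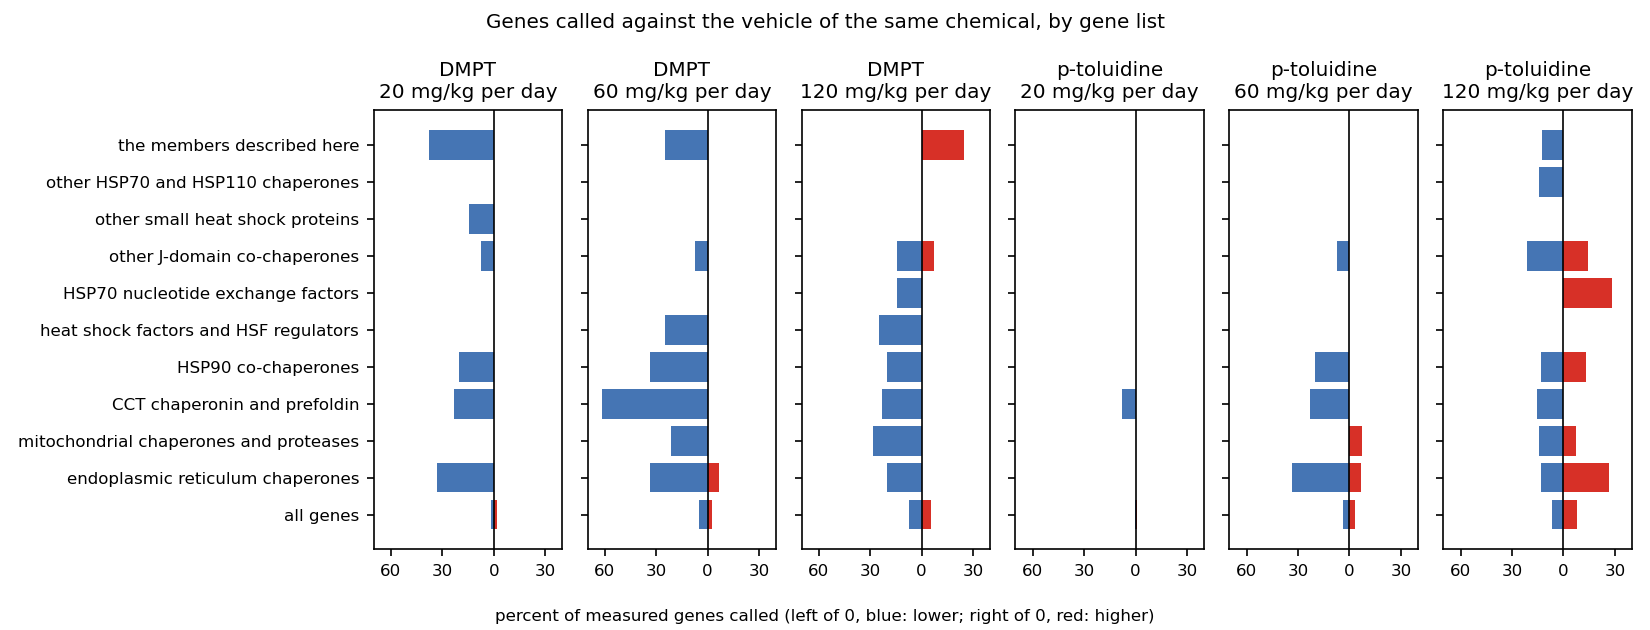
Percent of the measured genes of each list (rows) with an adjusted p of at most 0.05 against the vehicle of the same chemical, at 20, 60 and 120 mg/kg per day. Bars to the left of 0 (blue) count lower genes and bars to the right (red) higher ones. The longest bar is that of the CCT chaperonin and prefoldin list at 60 mg/kg DMPT, 8 of 13 genes, and the bottom row gives all genes.

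Markers of other cell types moved at the same doses. At 60 and 120 mg/kg DMPT 4.89% and 7.43% of all genes fell and 2.42% and 5.29% rose. Under p-toluidine 3.59% and 6.91% fell and 3.01% and 7.84% rose. Of 10 stellate cell and fibroblast markers 3 fell at 60 and 2 at 120 mg/kg DMPT and 5 and 3 under p-toluidine. Pdgfrb, which lay below the median gene under either chemical, changed by -0.72 ± 0.11 and -0.72 ± 0.11 at 120 mg/kg. The summed linear level of the 10 markers ran from 995 to 1594 at 120 mg/kg, against 1097 to 1599 for DMPT vehicle, and from 643 to 892, against 918 to 1066 for p-toluidine vehicle. Of 6 cholangiocyte markers Epcam (1.47 ± 0.13 and 1.84 ± 0.12 at 120 mg/kg) and Anxa4 (0.53 ± 0.09 and 0.72 ± 0.07) rose. The summed level of the 6 was 291 to 346 at 120 mg/kg DMPT, against 167 to 205 for vehicle, and 186 to 231 at 120 mg/kg p-toluidine, against 99.9 to 126 for vehicle. Epcam and Anxa4 had the largest values in that sum, while Krt7, Krt19, Cftr and Spp1 lay below the median gene, and the median change of the list at 120 mg/kg was 0.10 for DMPT and 0.12 for p-toluidine. The hepatocyte factor Hnf4a changed by -0.52 ± 0.09 at 120 mg/kg DMPT, where 2 of 9 hepatocyte markers fell, as at 60 mg/kg of each chemical. At the single doses Cd5l alone fell among 6 Kupffer cell markers (120 mg/kg p-toluidine), and none of 6 endothelial markers passed at 20, 60 or 120 mg/kg. Tnnc2 and Myh1 rose among 7 muscle markers (120 mg/kg p-toluidine). Under p-toluidine Myh1 was bright, at a mean of 9.29, Tnnc2 lay below the median gene (3.03), and 5 of the 7 lay below the array median. Of the endothelial markers Stab1 trended down with the dose of each chemical (-0.08 per dose rank for both, limma, adjusted p = 0.0188 for DMPT and 0.0114 for p-toluidine), and Vwf with DMPT dose (-0.06, adjusted p = 0.0149). Of the Kupffer cell markers Csf1r trended down with DMPT dose (-0.07, adjusted p = 0.0190). Cd5l (-0.10, adjusted p = 0.00208) and Aif1 (-0.08, adjusted p = 0.0324) did so with p-toluidine dose. Of the 10 stellate cell and fibroblast markers 4 trended down with DMPT dose and 5 with p-toluidine dose. None of the markers of these cell types trended up. Downward trends passed for 12.2% of all genes under DMPT and 9.54% under p-toluidine. The part of these cell types in the members' results was not tested.

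The 3′ minus 5′ difference of the beta-actin control probe sets, a gauge of RNA integrity, was 1.28 ± 0.08 at 120 mg/kg DMPT and 1.48 ± 0.15 for vehicle (SD, n = 5 each, exact permutation test, two-sided, p = 0.0159, adjusted p = 0.238 over 20 tests). It was 1.52 ± 0.09 at 120 mg/kg p-toluidine and 1.80 ± 0.15 for vehicle (exact permutation p = 0.0238, adjusted p = 0.238). The same difference for the Gapdh control probe sets was -0.10 ± 0.06 at 120 mg/kg DMPT and -0.03 ± 0.06 for vehicle (exact permutation p = 0.127). It was 0.08 ± 0.08 at 120 mg/kg p-toluidine and 0.14 ± 0.03 for vehicle (exact permutation p = 0.183, adjusted p = 0.365 for each chemical). The Gapdh gauge was not used as a covariate. With the beta-actin gauge as a covariate Hsph1 no longer passed at 120 mg/kg p-toluidine, Hspd1 did there (0.28, adjusted p = 0.0440), and neither step from 60 to 120 mg/kg DMPT passed. The calls of Cryab and Hspd1 at 120 mg/kg and of Hsph1 at 20 and 60 mg/kg DMPT held.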

How the data were processed

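The authors deposited log2 expression values per probe set. Per the submitters' processing notes they were made with RMA, named without a version. The log2 scale was taken from that method and from the range of the values, 0.0507 to 13.9. For the normalization settings and the annotation build, the sources used here give nothing. Depth has no meaning for arrays, whose number limits the precision.

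Of 31099 probe sets, 57 controls were left out, leaving 31042 for limma 3.58.1 (run in R 4.3.3), with no brightness filter. Symbols came from the platform annotation, updated by gene ID to RefSeq names: 20826 probe sets had 1 symbol, 436 several and 9780 none. For each chemical 6 group means were fitted over 30 arrays, each dose was contrasted with its vehicle, and p-values were adjusted by Benjamini-Hochberg over all probe sets. Trends used the dose rank, and differences between chemicals a fit of 60 arrays. RNA quality gauges had exact permutation tests (252 splits of 5 against 5).

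The members and lists were chosen with earlier results of these data known. Named genes were the members with all their single-symbol probe sets, at most 3 listed genes per list and contrast with the largest called changes at 60 or 120 mg/kg, and 3 genes per chemical correlated with the members' mean. Cdc37, Dnajc3, Dnajc21, Dnajb2, P4hb at 60 mg/kg and Grpel1 at 120 mg/kg DMPT were named in addition, as were listed genes at 6 and 20 mg/kg and in dose trends, after their values were seen. Alternatives were other normalizations, filters, probe set choices, covariates, blocks and arrays left out. Scripts were tested on simulated data. Replicates of a group numbered 5, and no batch is given in the labels or headers.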

Additional observations from a re-analysis of the deposited data

Results flagged for a closer look

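In 8 of 96 sets of 5 arrays (8 genes in 12 groups) 1 array stood apart from the other 4, where chance gives about 1 in 20. Hspe1 held 3 of them under DMPT, with 10.48 on replicate 3 at 60 mg/kg (the others 10.69 to 10.75), 10.83 on replicate 5 at 120 mg/kg (the others 10.99 to 11.06) and 11.005 on vehicle replicate 3 (the others 10.73 to 10.81). Cryab held 3 as well, with 4.49 on DMPT 20 mg/kg replicate 1 (the others 4.30 to 4.33), 3.72 on p-toluidine 6 mg/kg replicate 4 (the others 3.58 to 3.62) and 3.19 on p-toluidine 20 mg/kg replicate 5 (the others 3.51 to 3.58). Hsph1 read 6.83 on DMPT 20 mg/kg replicate 2 (the others 7.02 to 7.08). Dnajb1 read 7.13 on DMPT 1 mg/kg replicate 1 (the others 6.83 to 6.89). Without that Hspe1 vehicle array, its lower call at 20 mg/kg DMPT was lost and its change at 120 mg/kg passed.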

How the results depend on the processing

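Of 160 member results (8 genes in 20 comparisons) 13 were called. Over 2976 recomputed values 2902 stayed on their side of the threshold, 46 lost a call, 28 gained one and 0 called values changed sign, while 147 uncalled ones did. The lower calls of Hsph1 at 20 and 60 mg/kg DMPT and the higher calls of Cryab and Hspd1 at 120 mg/kg held in every alternative and leave-out run. For Hspd1 this was narrow, with a limma adjusted p of up to 0.04998 over the alternatives. With array medians set equal, members that fell at 20 mg/kg DMPT were 1 in place of 3 and members that rose from 60 to 120 mg/kg DMPT 0 in place of 2. That step count was 1 with the mean of a gene's probe sets, 0 with the beta-actin covariate and 0 without the narrow arrays. Without those arrays members that fell at 60 mg/kg DMPT were 1 in place of 2 and upward DMPT trends 0 in place of 2. With dose as log2(dose + 1) upward DMPT trends were 1 and downward ones 2 in place of 0, and without the 120 mg/kg group 0 and 2. At 60 mg/kg p-toluidine 1 member fell in place of 0 among the brighter probe sets and with mean probe sets. At 120 mg/kg p-toluidine the members that fell were 2 among the brighter probe sets, 3 with mean probe sets and 0 with the beta-actin covariate, in place of 1, and with that covariate 1 rose in place of 0.

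With 1 array left out, the members that fell ranged from 0 to 1 at 6 mg/kg, from 1 to 3 at 20 mg/kg and from 1 to 3 at 60 mg/kg DMPT, and those that rose from 2 to 3 at 120 mg/kg and from 0 to 2 in the step. For p-toluidine those that fell ranged from 0 to 1 at 20 mg/kg, from 0 to 1 at 60 mg/kg and from 0 to 2 at 120 mg/kg, and those that rose from 0 to 1 at 120 mg/kg. The cause of these changes was not tested.

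Arrays with the same replicate number did not deviate together (mean correlation -0.00 for either chemical, 4 of 30 DMPT and 2 of 30 p-toluidine arrays correlating best with their own number), so the numbers name arrays only. With the number as a replicate block, Hsph1 passed at 60 mg/kg p-toluidine (1 member fell in place of 0, adjusted p = 0.0425), the Hspe1 step did not (1 member rose in place of 2, adjusted p = 0.0640), and no other member call changed.

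Over all probe sets the number called moved by over 1.5 times in the following cases, where the count was above 0 or came to over 5. At 6 mg/kg DMPT it was 52, and 15 when only the dose and its vehicle were fitted and 115 with the beta-actin covariate, and at 60 mg/kg DMPT it was 1613 and 899 in that smaller fit. For p-toluidine it was 244 at 20 mg/kg, and 133 in the smaller fit and 394 among the brighter probe sets, and 1400 and 734 in the smaller fit at 60 mg/kg. The step from 60 to 120 mg/kg DMPT had 54, and 23 with the covariate. Without the 120 mg/kg group, trends passed for 2446 in place of 4620 probe sets (DMPT) and 1977 in place of 4496 (p-toluidine). In a fit of only the 4 groups compared, differences between the chemicals passed for 39 in place of 0 at 20 mg/kg and 21 in place of 2 at 120 mg/kg, none of them a member's brightest probe set, and 1 at 120 mg/kg with array medians set equal. With 1 array left out, the counts ran from 18 to 73 at 6 mg/kg, from 472 to 666 at 20 mg/kg (810 with all arrays) and from 24 to 77 in the step for DMPT, and from 115 to 247 at 20 mg/kg and from 150 to 307 in the step (260 with all arrays) for p-toluidine. For the differences they ran from 0 to 18 at 20 mg/kg, from 1 to 8 at 120 mg/kg and from 0 to 3 for the steps (2 with all arrays). The step and the runs without the narrow arrays were added after the values were seen. Low signal limits Cryab, which lay below the median gene. Among the listed genes it also limits Hsf1, Bag2, Dnajb14 and Pdgfrb, with means of 3.88, 3.26, 3.49 and 3.96 over the 60 arrays.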

Other observations

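Hspa8, the constitutive cytosolic HSP70, and Hsp90aa1, the inducible cytosolic HSP90, were read only by probe sets that carry a second symbol, and their values cannot be given to either gene. The probe set annotated to both Hspa8 and Haus8l2 read 9.68, 9.55, 9.68, 9.80 and 9.49 at 120 mg/kg p-toluidine, against 10.33, 10.28, 10.34, 10.49 and 10.51 for vehicle. All 5 dosed arrays lay below every vehicle array. It fell at 60 mg/kg (-0.53 ± 0.13, limma, adjusted p = 0.00941) and 120 mg/kg p-toluidine (-0.75 ± 0.13, adjusted p = 8.90e-05), and at 120 mg/kg DMPT (-0.29 ± 0.09, adjusted p = 0.0431).

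A pair of probe sets was annotated to both Hsp90aa1 and its pseudogene Hsp90aa1-ps17. The first read 9.85, 9.66, 9.84, 9.83 and 9.39 at 20 mg/kg DMPT, against 10.33, 10.18, 10.60, 10.31 and 10.31 for vehicle, and fell at 20 mg/kg (-0.63 ± 0.10, adjusted p = 0.000523) and 60 mg/kg (-0.34 ± 0.10, limma, adjusted p = 0.0471). The second fell at 20 mg/kg (-0.58 ± 0.15, adjusted p = 0.0292) and 60 mg/kg DMPT (-0.66 ± 0.15, adjusted p = 0.00660). At 120 mg/kg DMPT their changes were 0.10 ± 0.10 and -0.03 ± 0.15, and neither passed. The probe set shared by the heat-inducible Hspa1a and Hspa1b did not pass at any dose of either chemical, while the probe set of Hspa1a alone passed in the DMPT dose trend, as given above.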
